A study of Arabidopsis thaliana with 13 samples.

Results

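Cytochrome P450 genes were followed through 72 h of a culture in which Arabidopsis thaliana cotyledons are turned into vascular cells. The genes were those whose symbol in the probe annotation is CYP with 2 or 3 digits and a capital letter, read from probe sets of 1 gene. The rule found 25 genes among the 16548 genes named, each by a single probe set. Of the 25 genes, 21 belong to the subfamily CYP71B, and the other 4 were CYP78A9, CYP79A2, CYP79C2 and CYP84A4. The same symbol rule finds 236 genes in the TAIR10.1 annotation, 36 of them CYP71B, so the 25 genes are a share of the family with many CYP71B genes. P450 genes of hormone, sterol, carotenoid and cutin synthesis, and the P450 reductases that feed the family with electrons, were not analysed here.

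All samples were cotyledons of Col-0 seedlings that had grown for 6 days under constant light in MS liquid culture at 22 °C, and they differed by label in time alone. To start the culture the cotyledons were given 10 µM bikinin, an inhibitor of the GSK3-like kinases that restrain brassinosteroid signalling, together with an auxin analogue (2,4-D, 1.25 mg/L) and a cytokinin (kinetin, 0.25 mg/L). Every 6 h 1 sample was taken for 1 array, which gave 13 arrays, none of them from cotyledons kept without these compounds. For the tests, neighbouring times were pooled into an early window (6 to 24 h), a middle window (30 to 48 h) and a late window (54 to 72 h), each of 4 arrays, beside the lone array of 0 h. The SD given for a window thus mixes array error with the change between its times, and the p-values cover the spread among these arrays and no other source of error.

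Cytochromes P450 are haem enzymes of the endoplasmic reticulum that insert 1 oxygen atom into a substrate with electrons from NADPH, passed on by a reductase. Plants hold very large P450 families, which make hormones, lignin precursors, glucosinolates, phytoalexins and volatile terpenoids. The CYP71 family is among the largest of them, and the substrates of many CYP71B enzymes are not settled. CYP71B6 acts on indole-3-acetonitrile on the way to indole carbonyl defence compounds, and CYP71B31 oxidises linalool in flowers. CYP79A2 makes phenylacetaldoxime from phenylalanine for benzylglucosinolate, CYP79C2 belongs to the same aldoxime-forming family, CYP84A4 acts in arabidopyrone synthesis, and CYP78A9 promotes fruit and seed growth.

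Levels are given on a log scale read as log2, with each array's median set at 0, and levels of different genes were not set against each other, since probe sets differ in their response. A gene was tested if its probe set lay above the lowest 30% by mean, at a centred level of -1.61. This left 15 P450 genes, namely 13 CYP71B genes, CYP79C2 and CYP84A4, among 10982 genes tested. The lowest mean among those tested was -1.54, of CYP71B38, and the highest among the 10 genes left out was -1.90, of CYP79A2. In 6 of the 15 genes (CYP71B19, CYP71B20, CYP71B25, CYP71B38, CYP79C2 and CYP84A4) the middle or the late mean lay below that limit, and they passed through the arrays on which they were high. A fall over time was favoured in these genes by the filter itself, and counts and medians over the 15 genes are given as a description. In the other 9 genes all window means lay above the limit. A gene was called higher or lower in a window when limma gave a Benjamini-Hochberg adjusted p under 0.05 over all genes tested and a log2 difference of at least 1. RNA of a whole organ cannot tell fewer cells of a type from less RNA per cell.

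Before centring, the arrays formed 2 sets that differed in overall level. The medians of the 8 arrays of 30 to 72 h averaged 5.91, against 5.23 for the 5 arrays of 0 to 24 h. The step between the sets falls between 24 and 30 h, where the middle window is set against the early one, and the set of an array and its time cannot be told apart there. The cell markers measured moved too. The summed level of 4 mesophyll photosynthesis genes (RCA, PRK, SBPASE and PSAN, of 7 listed) was 7.85 at 0 h, 5.70 to 7.22 in the early, 4.19 to 4.82 in the middle and 3.78 to 4.22 in the late window. That of 3 of 10 listed xylem genes (GUT2, IRX15 and IRX15-L) was 2.60 at 0 h, 2.05 to 4.06 in the early, 3.21 to 4.90 in the middle and 4.90 to 5.73 in the late window. For 3 of 7 listed phloem genes (SWEET11, OPS and CLE45) it was 6.22 at 0 h, 4.86 to 5.73 in the early, 3.88 to 4.77 in the middle and 3.34 to 3.71 in the late window. This sum followed SWEET11, called lower on the second and the third day (-1.30 and -1.53), while OPS was called higher on the second day (1.46) and CLE45 on both (1.73 and 1.80). Of 5 listed procambium genes only LAS was named, and it lay below the filter. The part of these cells in the P450 results was not tested.

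Most P450 genes were high at the start of the culture and low on its second and the third day. With centred arrays, all 15 genes tested had their highest value on an array of 0 to 24 h, as had 66.4% of all genes tested. The highest value came at 0 h for 7 genes (CYP71B21, CYP71B25, CYP71B29, CYP71B36, CYP71B38, CYP79C2 and CYP84A4). It came at 6 h for CYP71B6, CYP71B20, CYP71B23 and CYP71B34, and at 12 h for CYP71B5, CYP71B19, CYP71B28 and CYP71B35. The lowest value fell on an array of 30 to 72 h for 14 genes, against 59.7% of all genes tested, and CYP71B28, lowest at 0 h, was the exception. These times depended in part on the scaling. With values as deposited, CYP71B25 was highest at 72 h (4.95, against 4.73 at 0 h). CYP71B35 was then highest at 36 h (6.18, against 6.17 at 12 h), and CYP71B6 was lowest at 0 h (6.68). The heat map of the levels sets the 25 genes out over the 13 arrays.

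**Figure D1:**
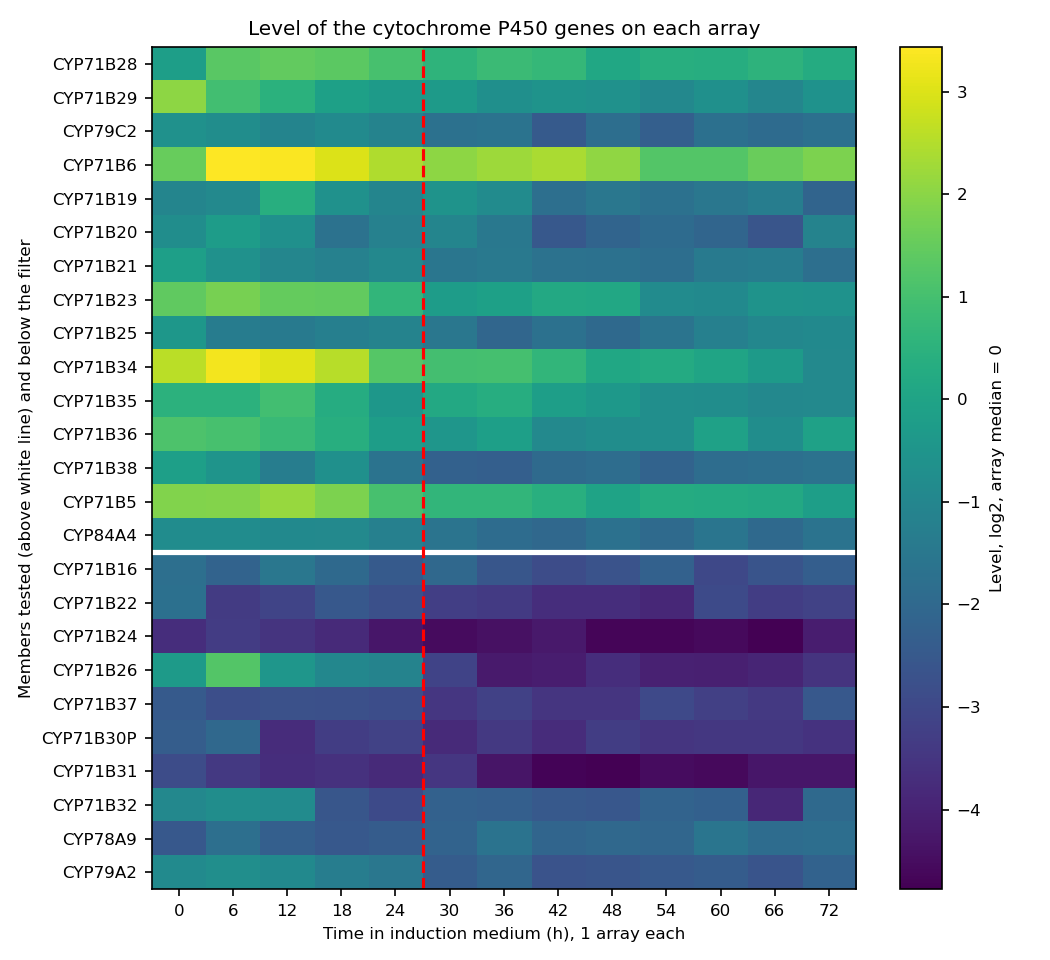
Level of each P450 gene (rows) on each of the 13 arrays (columns, time in h), as log2 with the array median at 0. The white line parts the 15 genes tested from the 10 below the filter, and the dashed red line marks the break between the array sets of 0 to 24 h and 30 to 72 h. Lighter colours are higher levels and compare arrays within a row. Most rows are lighter left of the dashed line.

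The members' median change from the 0 h array was 0.06 at 12 h, -0.80 at 24 h, -1.10 at 30 h, -1.61 at 54 h and -1.24 at 72 h. Over all genes tested the median change at these times was -0.06, -0.15, -0.23, -0.25 and -0.18. The median of the 15 genes thus lay close to 0 until 12 h and was already lower on the 24 h array, which belongs to the first array set. Single genes differed, the quartiles of the change at 12 h being -0.67 and 0.47. In 6 of the 15 genes the filter itself favoured a fall, and the medians are a description. At 54 h a single P450 gene of the 15, CYP71B28, lay above its 0 h level, against 8 of the 15 at 12 h. With values as deposited CYP71B6 and CYP71B19 lay above it at 54 h as well.

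**Figure D2:**
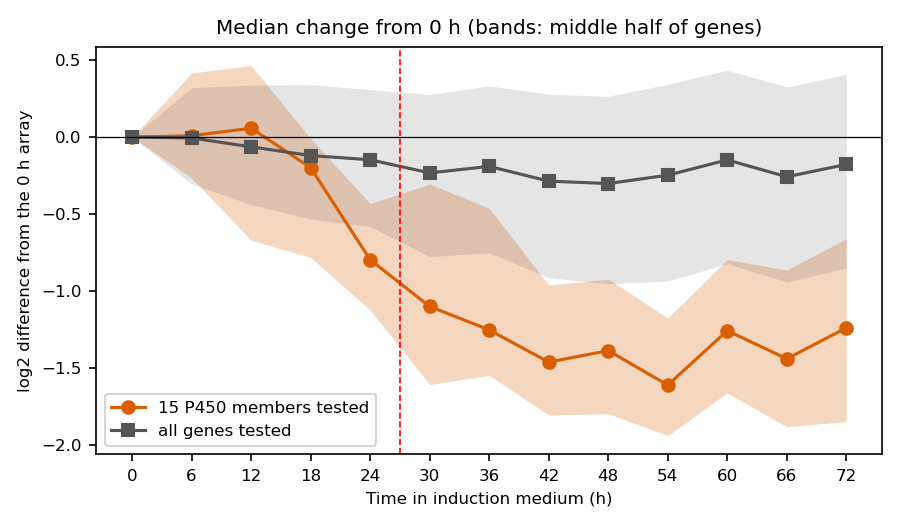
Median log2 difference from the 0 h array at each time (h) for the 15 P450 genes tested (circles) and for all 10982 genes tested (squares), with bands over the interquartile range. The P450 median reached -0.80 at 24 h, left of the dashed line that marks the break between array sets, and -1.61 at 54 h.

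The first day of culture compares the early window with the array labelled 0 h. Here CYP71B6 and CYP71B28 were called higher and CYP71B29 lower. Of 15 genes tested 2 were called higher, beside 6.3% of all genes tested, and 1 was called lower, beside 5.49%. The differences of 12 genes were below 0, against 57.5% of all genes tested, and the median difference was -0.17, against -0.08.

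CYP71B6, the enzyme of indole-3-acetonitrile metabolism, was at 1.51 at 0 h, and at 3.44, 3.38, 3.01 and 2.47 at 6, 12, 18 and 24 h. It then measured 2.04, 2.22, 2.40 and 2.09 at 30, 36, 42 and 48 h, and 1.25, 1.25, 1.56 and 1.81 at 54, 60, 66 and 72 h. All 4 early arrays lay above the 0 h array, the peak came at 6 h, and the late arrays surrounded the starting level. The early mean was 3.08 ± 0.45 (SD, n = 4) against the single 0 h value, a log2 difference of 1.56 ± 0.32 (SE), or 2.96-fold (limma, adjusted p = 0.00467).

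CYP71B28 rose early by a like factor and came back only in part. Its values were -0.17 at 0 h, 1.33, 1.46, 1.38 and 1.06 from 6 to 24 h, 0.57, 0.82, 0.69 and 0.12 from 30 to 48 h, and 0.36, 0.34, 0.53 and 0.29 from 54 to 72 h. Every later array lay above the 0 h array, and the middle and late arrays lay below all early ones. The early mean of 1.31 ± 0.18 (SD, n = 4) was 1.48 ± 0.23 (SE) above 0 h, or 2.78-fold (limma, adjusted p = 0.00107).

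CYP71B29 did the opposite. It measured 2.06 at 0 h, then 0.96, 0.47, -0.10 and -0.29 from 6 to 24 h, -0.30, -0.69, -0.57 and -0.64 from 30 to 48 h, and -0.93, -0.66, -1.02 and -0.58 from 54 to 72 h. The 0 h array stood above all 12 others, and each array of the first day was lower than the one before it. In the early window the mean was 0.26 ± 0.57 (SD, n = 4), which is 1.79 on the log2 scale below 0 h (difference -1.79 ± 0.37 SE, 3.47-fold lower; limma, adjusted p = 0.00507).

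Further genes passed the adjusted p in the first day with a difference under the cutoff of 1, namely CYP71B21 (-0.80) and CYP71B25 (-0.84). The differences of the remaining 10 genes ran from CYP71B38 at -0.87 to CYP71B19 at 0.50 and did not pass the test. With the spread taken from the 5 arrays of 0 to 24 h alone, the call of CYP71B28 held, while those of CYP71B6 (limma, adjusted p = 0.0928) and CYP71B29 (limma, adjusted p = 0.113) were lost at the same differences. Without the 6 h array CYP71B38 was called lower as well, which made 2 genes lower, beside 8.34% of all genes.

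**Figure D3:**
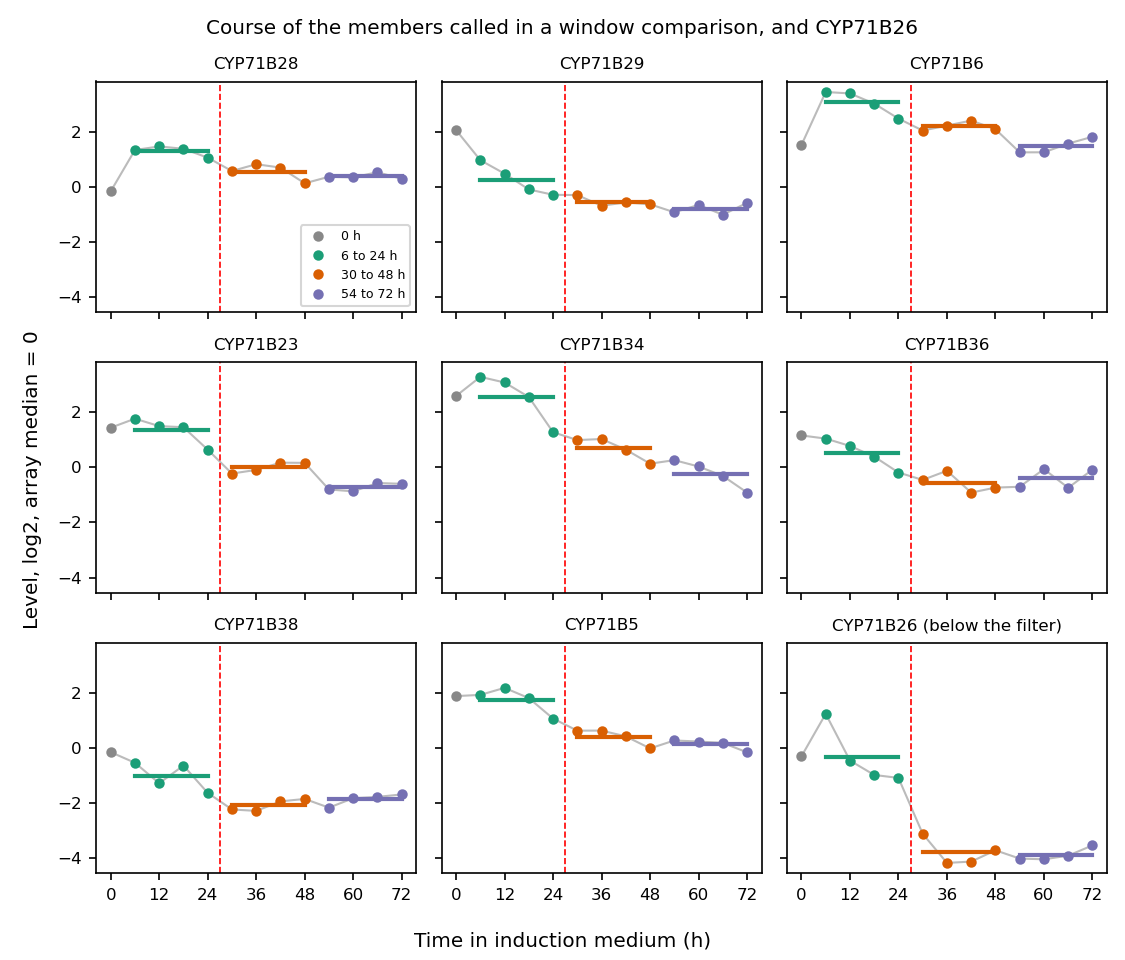
Level (log2, array median at 0) against time in h for the 8 P450 genes called in a window comparison and for CYP71B26, which lay below the filter. Points are single arrays coloured by window, bars are window means, and the dashed red line marks the break between array sets. CYP71B6 and CYP71B28 peak on the first day, CYP71B29 starts at its highest value of 2.06, and CYP71B26 goes below -3 from 30 h on.

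On the second day no P450 gene was called higher, and CYP71B34, CYP71B23, CYP71B5, CYP71B36 and CYP71B38 were called lower. CYP71B38 was among the 6 genes in which the filter itself favoured a fall, and a floor on dim values ended its call. The middle window against the early window gave 5 of 15 genes called lower, beside 8.3% of all genes tested, and 0 called higher, beside 5.11%. A further 7 genes passed the adjusted p with a difference under the cutoff. With centred arrays, though not with values as deposited, the differences of all 15 genes were below 0, as were those of 68.5% of all genes tested, and their median was -0.86 against -0.25.

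CYP71B34 had the largest second-day difference of the 15 genes. Its values were 2.59 at 0 h, 3.28, 3.08, 2.55 and 1.27 from 6 to 24 h, 0.99, 1.03, 0.64 and 0.13 from 30 to 48 h, and 0.26, 0.03, -0.31 and -0.92 from 54 to 72 h. Every middle array lay below every early one, and the 24 h array was already far below the arrays before it. The middle mean of 0.70 ± 0.41 stood against an early mean of 2.55 ± 0.90 (SD, n = 4 each), a log2 difference of -1.85 ± 0.40 (SE), or 3.60-fold lower (limma, adjusted p = 0.00211).

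CYP71B23 and CYP71B5 had like courses. CYP71B23 measured 1.44 at 0 h, 1.76, 1.49, 1.45 and 0.64 from 6 to 24 h, -0.23, -0.09, 0.17 and 0.16 from 30 to 48 h, and -0.80, -0.87, -0.57 and -0.60 from 54 to 72 h. CYP71B5 measured 1.88 at 0 h, 1.92, 2.18, 1.81 and 1.06 from 6 to 24 h, 0.62, 0.63, 0.42 and -0.02 from 30 to 48 h, and 0.27, 0.23, 0.18 and -0.16 from 54 to 72 h. Both held their level to 18 h, dropped on the 24 h array, and had no middle array as high as an early one, while the late arrays of CYP71B23 lay below its middle ones without overlap. The middle mean of CYP71B23 was 0.00 ± 0.20 against an early mean of 1.34 ± 0.49 (SD, n = 4 each), a log2 difference of -1.34 ± 0.21 (SE; 2.52-fold lower; limma, adjusted p = 0.000343). For CYP71B5 the means were 0.41 ± 0.30 in the middle and 1.74 ± 0.48 in the early window (SD, n = 4 each), a log2 difference of -1.33 ± 0.22 (SE; 2.51-fold lower; limma, adjusted p = 0.000512).

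CYP71B36 and CYP71B38 passed the cutoff by little. CYP71B36 measured 1.16 at 0 h, 1.04, 0.77, 0.39 and -0.19 from 6 to 24 h, -0.46, -0.12, -0.92 and -0.74 from 30 to 48 h, and -0.71, -0.07, -0.74 and -0.08 from 54 to 72 h. The windows overlapped, with the 36 h array just above the 24 h array, and the first day ran downward throughout. CYP71B38 measured -0.15 at 0 h, -0.54, -1.28, -0.64 and -1.63 from 6 to 24 h, -2.23, -2.29, -1.94 and -1.85 from 30 to 48 h, and -2.17, -1.83, -1.78 and -1.69 from 54 to 72 h. Its middle arrays all lay below its early ones. CYP71B36 averaged -0.56 ± 0.35 in the middle and 0.50 ± 0.53 in the early window (SD, n = 4 each; difference -1.06 ± 0.27 SE, limma, adjusted p = 0.00554), and CYP71B38 -2.08 ± 0.21 in the middle and -1.02 ± 0.52 in the early window (difference -1.05 ± 0.23 SE, limma, adjusted p = 0.00223). The call of CYP71B36 was lost without the 6 h, 12 h or 42 h array and that of CYP71B38 without the 6 h, 18 h or 36 h array. Without the 6 h array 3 genes were thus called lower, beside 7.04% of all genes. The middle and late means of CYP71B38 lay below the filter limit, and with a floor at the 40th percentile of each array its difference was -0.16 (limma, adjusted p = 0.0529) and the call was lost.

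The genes that passed the adjusted p on the second day with smaller differences were CYP79C2 (-0.96), CYP71B6 (-0.89), CYP84A4 (-0.85), CYP71B29 (-0.81), CYP71B28 (-0.76), CYP71B21 (-0.67) and CYP71B25 (-0.54). CYP71B20 (-0.86), CYP71B19 (-0.61) and CYP71B35 (-0.34) did not pass the test. The aldoxime-forming CYP79C2 averaged -1.90 ± 0.36 in the middle and -0.94 ± 0.17 in the early window, and the arabidopyrone enzyme CYP84A4 averaged -1.80 ± 0.17 in the middle and -0.95 ± 0.18 in the early window (SD, n = 4 each). For both, every middle array lay below every early one. Their middle and late means lay below the filter limit, so that such a fall was favoured by the filter itself.

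**Figure D4:**
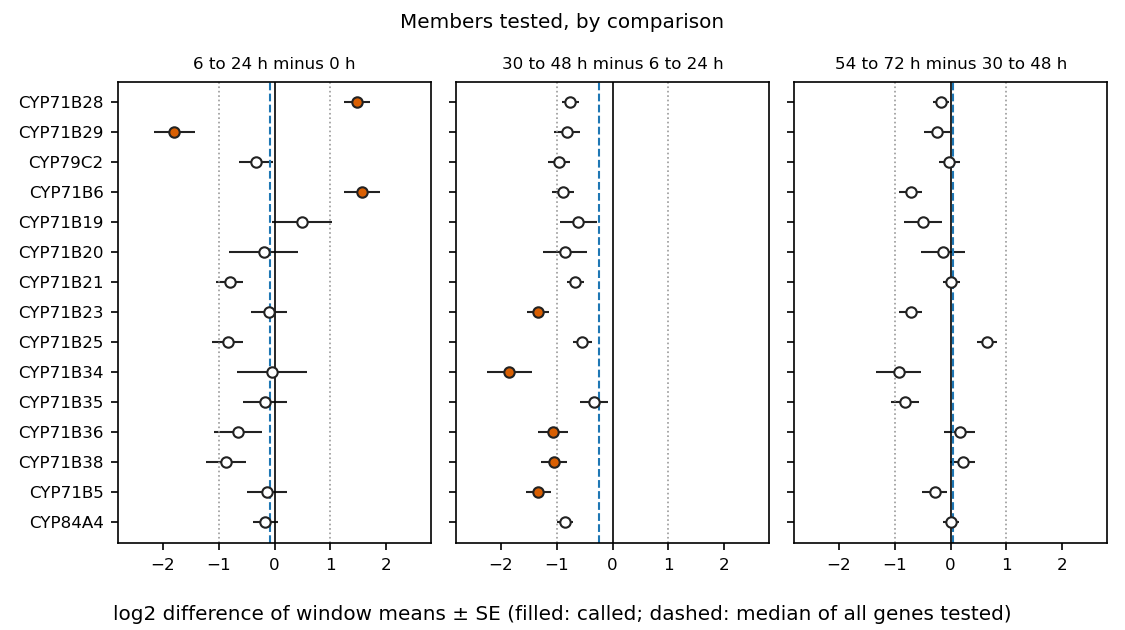
Log2 difference of window means with its SE for each of the 15 P450 genes tested, in 3 panels for the early window minus 0 h, the middle minus the early window and the late minus the middle window. Filled points were called, dotted lines mark the cutoff of 1, and the dashed line is the median of all genes tested. Points lie on both sides of 0 in the first panel, all 15 lie below 0 in the second (not so for CYP71B19, CYP71B21, CYP71B25 and CYP71B35 with values as deposited), and none is filled in the third.

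The size of the second-day fall depended on how the 2 array sets were put on a common scale and on how dim values were treated. With the values as deposited, CYP71B34 alone was called lower (difference -1.18, limma, adjusted p = 0.0166), beside 1.37% of all genes tested. The members' median difference was then -0.18, against 0.42 for all genes tested, and the differences of CYP71B19 (0.06), CYP71B25 (0.13), CYP71B35 (0.33) and CYP71B21 turned to above 0. With arrays centred on the named probe sets the median of all genes was -0.06. CYP71B34 (-1.66), CYP71B23 (-1.15) and CYP71B5 (-1.14) were then called lower, beside 5.2% of all genes. Under quantile normalization 4 genes were called lower, beside 6.53% of all genes, CYP71B38 (-0.88) being lost. With dim values raised to the 40th percentile of their array the members' median was -0.34, against -0.17 for all genes tested. CYP71B34, CYP71B23, CYP71B5 and CYP71B36 were then called lower, beside 6.62% of all genes. The 4 mesophyll markers were all called lower in the same comparison, and the part of mesophyll RNA in the P450 result was not tested.

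**Figure D5:**
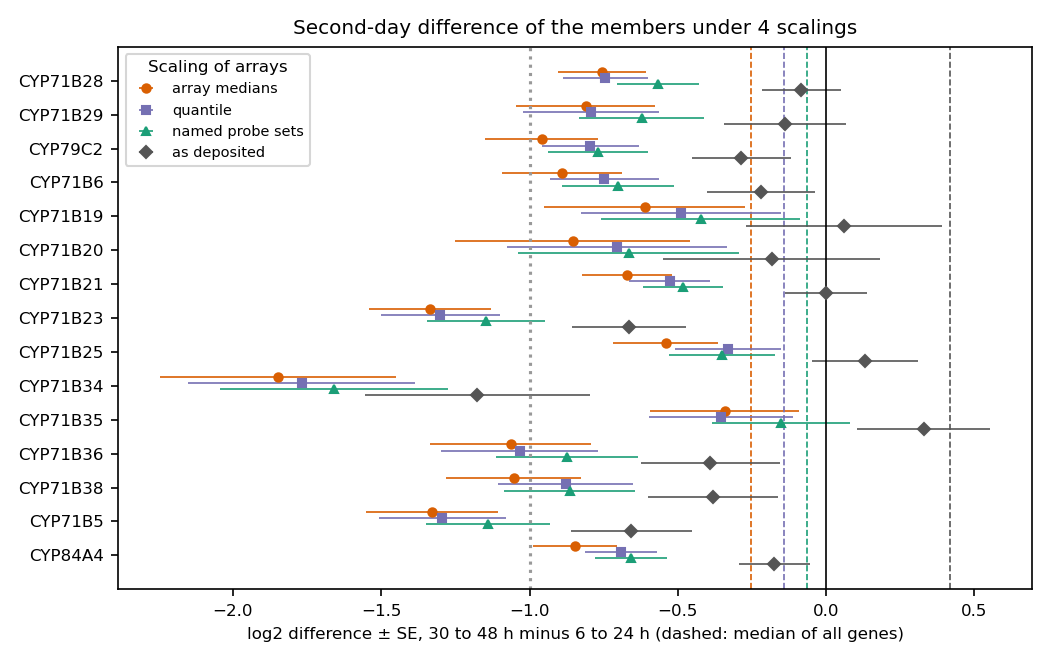
Log2 difference between the middle (30 to 48 h) and the early window (6 to 24 h) with its SE for each of the 15 P450 genes tested, under 4 scalings of the arrays. Dashed lines give the median of all genes tested under each scaling and the dotted line the cutoff of -1. CYP71B34 lies past the cutoff under every scaling shown, and the values as deposited, with a median of 0.42 over all genes, lie farthest right for each gene.

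Steps between single arrays, which span unequal lengths of time, are given as a description without a test. Between the 6 h and the 24 h array, both of the first set, 14 of 15 genes were lower at 24 h, against 64.2% of all genes tested. CYP71B34 (-2.01), CYP71B29 (-1.25), CYP71B36 (-1.23), CYP71B23 (-1.12) and CYP71B38 (-1.09) were lower by at least 1, against 7.32% of all genes, and 0 were higher by at least 1, against 5.42%. Across the break, and with centred arrays, 12 of the 15 genes were lower at 30 h than at 24 h, against 65.5% of all genes tested. On this shorter step 0 were lower by at least 1, against 1.16% of all genes. By at least 1, 0 were higher, against 1.03%, and the largest drop was that of CYP71B23 (-0.87). The direction of this step depended on the scaling. With values as deposited, only CYP79C2, CYP71B21, CYP71B23 and CYP71B38 were lower at 30 h. CYP71B34 then went from 6.62 at 24 h to 6.88 at 30 h, and CYP71B35 from 4.91 to 6.08. Between 30 h and 72 h, both of the second set, CYP71B34 (-1.90), CYP71B19 (-1.59) and CYP71B35 (-1.11) were lower at 72 h by at least 1, against 5.7% of all genes. CYP71B19 and CYP71B38 were among the 6 genes in which the filter itself favoured a fall.

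On the third day no P450 gene was called. The late window against the middle window gave 0 of 15 genes higher, beside 3.91% of all genes tested, and 0 lower, beside 1.47%, in limma. CYP71B6, CYP71B23, CYP71B25, CYP71B34 and CYP71B35 had an unadjusted p under 0.05. The adjusted p passed, with a difference under the cutoff, for CYP71B35 (-0.82), CYP71B6 (-0.72) and CYP71B23 (-0.71), and in the other direction for CYP71B25 (0.65). CYP71B34 had the largest difference (-0.93 ± 0.40 SE; limma, adjusted p = 0.148). The differences of 10 genes were below 0, against 43.7% of all genes tested, and the median difference was -0.17, against 0.04.

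A smooth curve over all 13 arrays, which uses no windows, was also fitted to each gene. All 15 P450 genes were called, with limma's F test at an adjusted p under 0.05 and a fitted range of at least 1, beside 46.2% of all genes tested. In 6 of them, which had passed the filter through the arrays on which they were high, a falling curve was favoured by the filter. Of the 9 genes with all window means above the limit, CYP71B28 alone did not end lower. The fitted ranges were 3.85 for CYP71B34, 2.61 for CYP71B29, 2.44 for CYP71B23 and 2.10 for CYP71B5, and lay between 1.05 and 2.00 for the other 11 genes. The curves of 13 genes ended lower than they began, beside 29.4% of all genes tested that were called and did so. Those of CYP71B28 and CYP71B25, beside 16.8% of all genes, ended close to their beginning, at 0.06 and 0.05 above it, and the direction of these small differences was not stable. CYP71B28 ended lower with array weights, a spline of 2 degrees of freedom, or without the 0 h or 18 h array. CYP71B25 ended lower with that spline, with the floor, or without the 6, 12, 24, 66 or 72 h array. CYP71B6 ended 0.04 higher with values as deposited. CYP71B28 was no longer called without the 6, 12, 18, 24 or 48 h array, CYP71B6 without the 12 or 18 h array, CYP71B25 without the 36 or 48 h array, and CYP71B21 without the 0 h array.

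With a term for the array sets, 6 of 15 curves were called, beside 33.4% of all genes tested: CYP71B25, CYP71B29, CYP71B34, CYP71B35, CYP71B36 and CYP71B38. Straight lines fitted within each set, chosen after seeing the data, gave the change free of the break. Over 0 to 24 h (5 arrays) CYP71B29 (-2.30, limma, adjusted p = 0.0265) and CYP71B36 (-1.34, limma, adjusted p = 0.0427) fell, beside 4.02% of all genes called lower, and 0 rose, beside 2.06%. Over 30 to 72 h (8 arrays) CYP71B34 (-1.81, limma, adjusted p = 0.000165), CYP71B35 (-1.35, limma, adjusted p = 0.000531) and CYP71B19 (-1.08, limma, adjusted p = 0.0437) fell, beside 5.89% called lower, and 0 were called higher, beside 6.96%. The late mean of CYP71B19 (-1.66) lay below the filter limit, so that its fall was favoured by the filter itself. The line of CYP71B25 over 30 to 72 h ran upward (0.98, limma, adjusted p = 0.0272), just under the cutoff. Its values did not rise within the second day, from -1.51 at 30 h to -1.96 at 48 h. On the third day they went from -1.62 at 54 h to -0.87 at 72 h.

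CYP71B19, CYP71B34 and CYP71B35, which fell within the arrays of the second set, all lie in a run of CYP71B genes on chromosome 3. So do 8 of the 15 genes tested. The other tested genes of the run were not called over 30 to 72 h, with changes from -0.76 (CYP71B23) to 0.98 (CYP71B25). CYP71B35, whose windows overlapped between the first and second day, measured 0.50 at 0 h and had its peak of 0.94 at 12 h. Its late arrays, from -0.94 to -0.71, all lay below its middle arrays, from -0.41 to 0.34. CYP71B19, in which the filter itself favoured a fall, peaked at 0.38 at 12 h, a single array well above its others. It was lowest at 72 h with -2.14, after -1.29 at 66 h. CYP71B25 was highest at 0 h (-0.44), lay between -2.08 and -1.51 in the middle window, and returned to between -1.62 and -0.87 in the late window, the windows overlapping.

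Of the 25 genes 19 are on chromosome 3. In the TAIR10.1 gene order, 13 of them lie in a run of 24 genes from CYP71B16 to CYP71B37 that holds 18 CYP71B genes in all, and 8 of the 13 were tested. Neighbours that are alike in sequence may share signal on an array. Whether these probe sets do was not tested, and the values of single CYP71B genes are uncertain to that extent. Within the run, levels over the 13 arrays correlated at r = 0.90 between the adjacent CYP71B34 and CYP71B35, 0.69 between CYP71B35 and CYP71B36, 0.62 between CYP71B20 and CYP71B21 and 0.51 between CYP71B19 and CYP71B20. The adjacent CYP71B28 and CYP71B29 on chromosome 1, called in opposite directions on the first day, had an r of 0.05.

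Across the 15 genes tested there were 105 pairs, with a median r of 0.69 over the 13 arrays. Of these pairs 33 had an r of at least 0.8, the highest being CYP71B5 with CYP71B34 at 0.98, which lie far apart on chromosome 3. The 4 pairs below 0 all held CYP71B25, with the lowest value of -0.22 against CYP71B28. All pairs share the same arrays and the same break between array sets, and the values are a description.

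Among the 1330 tested genes with a symbol, those most like CYP71B34 by Pearson r over the 13 arrays were PGL34 (0.99), CRR42 (0.98) and SIRB (0.98). CYP71B29 was most like HEME1 (0.99), UGT72E1 (0.98) and PRXR1 (0.97), and CYP71B23 was most like NQR (0.97), TAAC (0.97) and LPA19 (0.96). PGL34 is a plastoglobule protein, HEME1 an enzyme of tetrapyrrole synthesis and UGT72E1 a glucosyltransferase of phenylpropanoids. The 3 P450 genes were taken for their ranges, the largest among the genes called in a window comparison, and the r values share the arrays.

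The 10 genes below the filter on low signal were CYP71B16, CYP71B22, CYP71B24, CYP71B26, CYP71B30P, CYP71B31, CYP71B32, CYP71B37, CYP78A9 and CYP79A2. One of them, CYP71B26, had the largest range of all 25 genes. It measured -0.31 at 0 h, 1.23, -0.46, -0.98 and -1.09 from 6 to 24 h, -3.12, -4.17, -4.12 and -3.72 from 30 to 48 h, and -4.02, -4.04, -3.91 and -3.54 from 54 to 72 h. Its low values from 30 h on pulled its mean of -2.48 below the filter, and no middle or late array reached the early ones. In a fit without the filter the middle mean was -3.78 ± 0.49 against an early mean of -0.32 ± 1.08 (SD, n = 4 each), a log2 difference of -3.46 ± 0.42 (SE; limma, adjusted p = 8.37e-05), beside 10.3% of the 16548 genes called lower there. A single gene lies between it and CYP71B34, and their levels correlated at r = 0.88 over the 13 arrays.

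The same fit without the filter also called CYP79A2, the benzylglucosinolate enzyme, lower on the second day. Its middle mean was -2.43 ± 0.28 against an early mean of -1.11 ± 0.37 (SD, n = 4 each; difference -1.32, limma, adjusted p = 0.000217). CYP71B22 was called lower on the first day (difference -1.17, limma, adjusted p = 0.0312, beside 6.52% of all genes), with -1.76 at 0 h above all 12 later arrays, which ran from -3.88 to -2.51. CYP78A9, the organ growth gene, had the smallest range of the 25 genes (0.94), and its values ran from -2.52 to -1.58. The linalool oxidase CYP71B31 was highest at 0 h (-2.87) and lowest at 48 h (-4.75), and CYP71B32 was between -0.95 and -0.74 on the first 3 arrays and at -1.96 or lower on every later one. The ranges of CYP71B16, CYP71B24, CYP71B30P and CYP71B37 lay between 1.06 and 1.82.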

How the data were processed

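The deposited table held log values of 38408 probe sets on 13 Affymetrix arrays. The authors' values were taken as log2, judged by their range, and each fold depends on this. Nothing in the sources used here gives the base of the log, the summary of probes or the normalization. GCOS is the tool listed in the submitters' processing notes, without a version. The platform annotation gave 1 gene to 16722 probe sets, several to 759 and none to 20927, and 16574 of the 16722 matched the TAIR10.1 table by gene identifier. No genome build was named, so no coordinates are given.

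Arrays were centred on their medians and probe sets in the lowest 30% by mean were dropped. All 13 arrays entered 1 fit of window means with limma 3.58.1 under R 4.3.3 (9 residual degrees of freedom, eBayes with trend). The smooth course was a natural spline of 3 degrees of freedom. The lone 0 h array was assumed to vary like the windows. The fits were run on simulated data with independent noise around each gene's mean. Those data held no overall break between array sets, so they cannot show how the fits deal with it. The number of arrays limits the precision.

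All 25 genes are accounted for. Every array value is given for genes called in a window comparison, the values of CYP71B26 were added after they were seen, and the 3 called genes with the largest range were matched to the 3 genes with a symbol of highest r. The genes and lists were chosen with earlier results of these data known. Alternatives were other scalings, filters, floors, windows, splines and eBayes settings, array weights, a term for the array sets, lines within each set, and leaving out each array. The figures used matplotlib 3.10.9 and Python 3.11.15.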

Additional observations from a re-analysis of the deposited data

Results flagged for a closer look

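In 75 groups of 4 arrays (25 genes in 3 windows) a lone value stood far from the other arrays in 2. CYP71B37 had -3.19 at 36 h, with the nearest other middle array at -3.48, and CYP71B32 had -3.85 at 66 h, with the nearest other late array at -2.26. Chance alone marks about 1 group in 20 in this way. Both genes lay below the filter and were called in no window comparison.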

How the results depend on the processing

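No window difference of a called gene changed sign. The end of the fitted curve against its beginning did for 3 genes. For CYP71B25 (0.05) it was -0.34 with a floor at the 40th percentile, -0.20 with a spline of 2 degrees of freedom, and -0.16, -0.00638, -0.029, -0.00822 and -0.15 without the 6, 12, 24, 66 and 72 h array. For CYP71B28 (0.06) it was -0.64 with array weights, -0.70 with that spline, and -1.06 and -0.00865 without the 0 h and 18 h array, the curve beginning at 6 h without the 0 h array. For CYP71B6 (-0.65) it was 0.0359 with values as deposited. On the first day, the 5 arrays of 0 to 24 h alone gave 1 gene higher (CYP71B28) and 0 lower, beside 2.61% and 1.43% of all genes. Leaving out the lowest 50% of probe sets gave 0 lower (3.82% of all genes) and no filter gave 2 (6.52%). Leaving out 1 array gave 2 higher throughout (5.66% to 7.55% of all genes) and 1 to 2 lower (4.57% to 8.34%). On the second day 5 genes were called lower, beside 8.3% of all genes tested. Values as deposited gave 1 (1.37% of all genes), and centring on named probe sets gave 3 (5.2%). Leaving out the lowest 50% gave 3 of 5 tested (7.82%). Setting 36 to 48 h against 6 to 18 h gave 9 (13.2%), and leaving out 1 array gave 3 to 7 (6.74% to 11.5%). The floor at the 40th percentile took the members' median to -0.34 and CYP71B38 to -0.16, which ended its call. CYP71B34 was called in all 25 alternatives that tested it, CYP71B36 in 19 of 24 and CYP71B38 in 17 of 24. On the third day 0 genes were called under every alternative run. The curve called 15 genes, beside 46.2% of all genes tested. It called 8 with values as deposited, beside 37.7% of all genes ending higher and 12% lower. With a floor at the 40th percentile it called 8 (15% and 22.6%), and with the lowest 50% left out 5 of 5 tested (18.3% and 23.2%). A term for the array sets left 6 (33.4% called). Lines within 0 to 24 h and 30 to 72 h gave 2 and 3 lower (4.02% and 5.89%). Leaving out 1 array left 13 to 15 curves called (14.6% to 17.5% ending higher, 26.6% to 29.8% lower).

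Counts over all genes moved as well. On the first day 692 genes were higher and 603 lower, with ranges of 287 to 829 and 157 to 1079 over the alternatives. On the second day 561 were higher and 912 lower, with ranges of 454 to 1821 and 151 to 1697, the values as deposited giving 1821 higher and 151 lower. On the third day 161 were lower (74 to 276), and the curve called 5076 (3245 to 8893). Without the 0 h array the first-day comparison cannot be made. Signal over background was not given, so dim values have no stated floor. No paired analysis was possible because the labels give no replicate numbers.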
